A study of Mus musculus with 26 samples.

Results

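The messenger RNAs of 10 subunits of Polycomb repressive complex 2 (PRC2) were followed in mouse embryonic stem cells (mESCs) that lack, or carry back, Prdm14 or its partner Mtgr1. The genes were Ezh1, Ezh2, Eed, Suz12, Jarid2, Mtf2, Phf19, Aebp2, Rbbp4 and Rbbp7, chosen by name as subunits of the complex, out of 24015 genes in the deposited RNA-seq values. Poly(A) RNA of 15 libraries in 7 groups was sequenced. All libraries came from the Stella:GFP mESC line. Every line was maintained in 2i+LIF medium, with the 2 inhibitors named below. All groups but 1 had then spent 5 days without feeders in medium with serum and LIF, without the inhibitors of that medium. The groups were wt cells in serum+LIF (1 library), wt cells in serum-free 2i+LIF with the MEK inhibitor PD0325901 at 0.8 uM and the GSK3 inhibitor CHIR99021 at 3.3 uM (2 libraries), Prdm14-/- cells (clones G6 and F10), the same clones with FLAG-HA-Prdm14 added back (FH-Prdm14) or with the FLAG-HA-Prdm14 E294K mutant, which does not bind Mtgr1 (E294K), Mtgr1-/- cells (A3, C1 and C3, again clonal) and those clones with FLAG-HA-Mtgr1 added back (FH-Mtgr1). Both knockouts were made with CRISPR-Cas9, and each library of a knockout or rescue group is 1 clonal line.

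PRC2 places methyl groups on lysine residues of the histone H3 tail, a mark of silent developmental genes, and its trimethylated form H3K27me3 is bound by PRC1. Ezh1 or Ezh2 supplies the methyltransferase, Eed and Suz12 form the core around it, and Rbbp4 or Rbbp7 binds histones. Accessory proteins define distinct forms of the complex: Mtf2, Phf19 and Phf1 take part in PRC2.1, and Jarid2 and Aebp2 in PRC2.2. In mESCs the complex is dispensable for self-renewal but needed for orderly differentiation. Earlier studies had proposed PRC2 as a partner of Prdm14 in repression. The paper, however, found no PRC2 components in its purification of tagged Prdm14, and no Suz12 with either of its Prdm14-binding monobodies. The levels of the subunits are described here without regard to such a partnership.

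The libraries held 10668572 to 21218414 reads on genes (median 13793727), and the member with the fewest reads in any library, Phf19, had 83 there and up to 388 elsewhere. The mESC markers (Pou5f1, Sox2, Nanog, Sall4, Utf1, Dppa4, Dppa5a and Tdgf1) summed to 1769 to 2018 RPKM in Mtgr1-/- cells and to 2861 to 4960 RPKM in the other groups. Against FH-Mtgr1, 3 of these 8 markers were called lower in Mtgr1-/- cells, with log2 fold changes of -1.79 for Dppa5a, -0.82 for Nanog and -0.41 for Dppa4, and Sall4 was called higher, with 0.79. Pou5f1 (-0.23), Sox2 (-0.30), Tdgf1 (-0.32) and Utf1 (-0.17) were not called. Those of fibroblasts summed to 4.08 to 31.6 RPKM, with Lum at 0 in 11 libraries, and those of primitive endoderm to 6.17 to 27.4 RPKM. The primitive endoderm sums were 16.6 to 23.5 RPKM in FH-Mtgr1, 9.27 to 15.8 RPKM in Mtgr1-/- cells and 9.59 RPKM in wt serum+LIF. They were 13.7 to 27.4 RPKM in Prdm14-/- cells and 9.29 to 12.8 RPKM in FH-Prdm14. Prdm14 RNA was at 79.8 to 116 RPKM in the FH-Prdm14 and E294K lines and at 1.43 to 3.88 RPKM in the other serum+LIF groups. The rescue of Prdm14 is therefore an overexpression. Pairs of libraries of a group differed by more than the sampling noise of their reads wherever there was more than 1, most in wt 2i+LIF and least in E294K. In bulk RNA, fewer cells of a kind and less RNA per cell cannot be told apart.

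Levels are given in RPKM, in which reads are divided by the length of the gene and by the total of the library, so that levels of different genes can be set side by side. Differences are log2 fold changes of RPKM + 0.5, fitted with limma over all 15 libraries. They were called at an adjusted p under 0.05 (Benjamini-Hochberg over the 13477 genes that reached 1 RPKM in 2 or more libraries, among them all 10 members). The wt serum+LIF group has a single library, so that its comparisons take their spread from the other groups.

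All 10 members differed among the 7 groups in the limma F-test, against 81.9% of all genes tested, with adjusted p from 3.42e-05 for Ezh1 to 0.0469 for Aebp2. Of 21 alternative fits, Aebp2 lost the call in 11 (adjusted p 0.0669 to 0.109), Rbbp4 in 3 (0.0681 to 0.0932) and Eed in 1 (0.0603). The ratio of the highest to the lowest library ran from 2.06 for Rbbp4 to 6.77 for Ezh1, where the median over all genes above 0 in every library was 3.10. Mtgr1-/- cells had less Ezh1, Ezh2, Suz12 and Mtf2 and more Jarid2 and Rbbp7 than their rescue lines. Prdm14-/- cells had less Ezh2 and Mtf2 and more Rbbp7 than theirs. The E294K lines had more Eed, Jarid2 and Rbbp7 than the FH-Prdm14 lines.

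**Figure D1:**
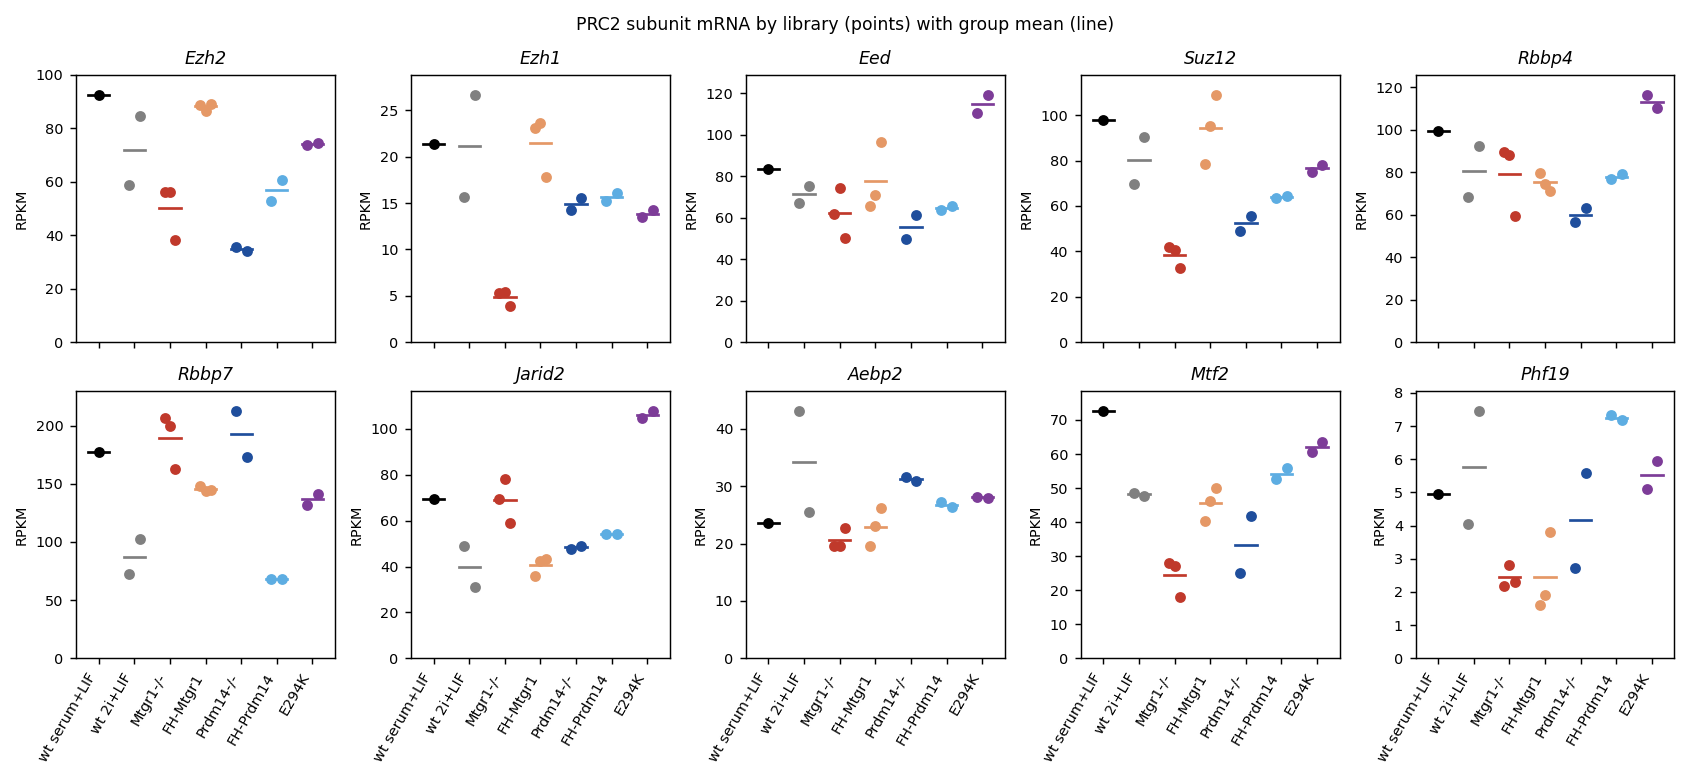
RPKM (y axis, linear from 0, scaled separately for each gene) of the 10 PRC2 subunits in the 7 groups (x axis). Each point is 1 library and each line the mean of its group. Ezh1 in the 3 Mtgr1-/- libraries, at 3.94 to 5.40 RPKM, sits apart from the other groups, and Rbbp7 in the 2 FH-Prdm14 libraries is lowest of all groups at 67.8 and 68.3 RPKM.

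Mtgr1-/- cells differed from the FH-Mtgr1 rescue of the same clones in 6 of the 10 members, 2 higher and 4 lower, against 52.3% of all genes tested (26.2% higher and 26.1% lower). The members' median log2 fold change was -0.23, and that of all genes -0.01. Prdm14-/- cells differed from FH-Prdm14 cells in 3 members, 1 higher and 2 lower, against 25.2% of all genes (11.4% higher and 13.8% lower), with medians of -0.26 and -0.09. The share of members called was close to that of all genes in both comparisons. A fit of the Prdm14 comparison that blocked on the parental clone called 6 members, against 49.8% of all genes in that fit. The blocked fit of these 4 libraries has 1 residual degree of freedom, and limma took the spread of every gene from the trend over all genes, so that its p-values do not measure how the clones vary in a single gene. The summed mESC markers were lower in Mtgr1-/- cells than in all other groups. They were also lower in Prdm14-/- cells, at 3127 to 3909 RPKM, than in FH-Prdm14 cells, at 4543 to 4758 RPKM. Single markers differed in other comparisons too. Pou5f1 (1.11), Tdgf1 (1.64) and Sall4 (0.50 on the log2 scale) were called higher in E294K than in Prdm14-/- cells. The other mESC markers were not called there. The part of these markers in the differences of the members was not tested.

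**Figure D2:**
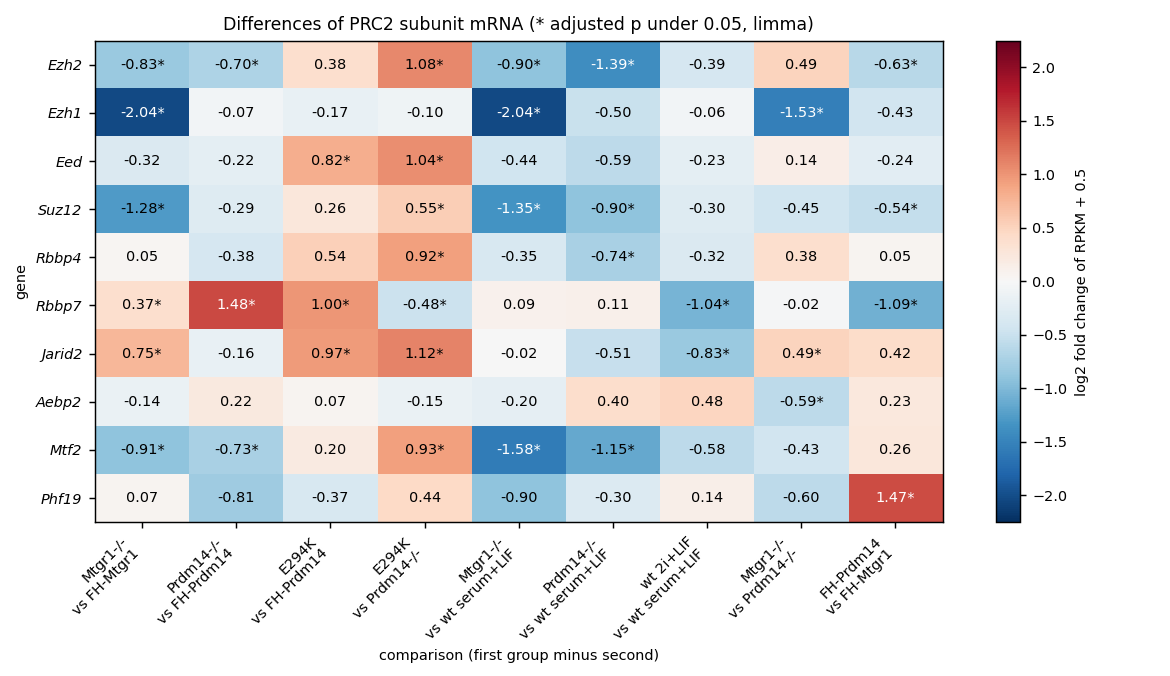
Log2 fold changes of RPKM + 0.5 for the 10 members (rows) in 9 comparisons (columns, first group minus second), with red for higher and blue for lower in the first group. Asterisks mark an adjusted p under 0.05 in limma. Ezh1 had -2.04 in Mtgr1-/- cells against FH-Mtgr1 and -0.07 in Prdm14-/- cells against FH-Prdm14.

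Ezh1, the methyltransferase that prevails in non-dividing cells, lies on chromosome 11 (101052429 to 101087777, minus strand, in NCBIM37, the assembly also called mm9). The Mtgr1-/- clones A3, C1 and C3 had 5.26, 5.40 and 3.94 RPKM, and their FH-Mtgr1 rescues 23.1, 23.6 and 17.8 RPKM. The wt serum+LIF library had 21.3 RPKM. The Mtgr1-/- libraries lay below every other library of the study. The log2 fold change was -2.04 against FH-Mtgr1 (standard error 0.19, limma adjusted p = 7.2e-06), a level 4.10-fold lower, and also -2.04 against wt cells (standard error 0.27, limma adjusted p = 0.000218). In Prdm14-/- cells Ezh1 was at 14.2 (G6) and 15.6 RPKM (F10), and in FH-Prdm14 cells at 15.2 and 16.1 RPKM. The difference was -0.07 on the log2 scale, with a 95% interval from -0.57 to 0.43. The E294K lines had 14.2 and 13.5 RPKM, and the 2i+LIF libraries 15.7 and 26.6 RPKM. In the order of group means, FH-Mtgr1, wt serum+LIF, wt 2i+LIF, FH-Prdm14, Prdm14-/- and E294K each overlapped the next, and Mtgr1-/- alone stood apart at the low end.

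Ezh2, the methyltransferase that prevails in dividing cells and in mESCs, lies on chromosome 6 (47480273 to 47545340, minus strand, NCBIM37). It was highest in the wt serum+LIF library, at 92.3 RPKM, followed by FH-Mtgr1 with 88.8, 86.5 and 89.0 RPKM. The Mtgr1-/- clones had 56.2, 55.9 and 38.0 RPKM, all below the rescue lines. Ezh2 fell by 0.83 on the log2 scale in Mtgr1-/- cells against FH-Mtgr1 (standard error 0.16, limma adjusted p = 0.00112). Prdm14-/- cells had the lowest Ezh2 of all groups, with 35.7 (G6) and 34.0 RPKM (F10) against 52.9 and 60.8 RPKM in FH-Prdm14. This was a log2 fold change of -0.70 (standard error 0.20, limma adjusted p = 0.0235), and it did not pass the threshold without any 1 of the 4 libraries (adjusted p from 0.0642 to 0.163). Against the single wt library, Ezh2 fell by 1.39 on the log2 scale in Prdm14-/- cells (limma adjusted p = 0.00368) and had -0.90 in Mtgr1-/- cells (limma adjusted p = 0.0095, and 0.0672 with only the compared groups in the fit). The FH-Prdm14 lines were below the FH-Mtgr1 lines, with a log2 fold change of -0.63 (limma adjusted p = 0.0159), which was -0.53 (0.134) without FH-Prdm14 clone G6. The E294K lines, at 74.6 (G6) and 73.7 RPKM (F10), were above Prdm14-/- cells by 1.08 (standard error 0.20, limma adjusted p = 0.0025). The order of group means ran from wt serum+LIF over FH-Mtgr1, E294K, wt 2i+LIF, FH-Prdm14 and Mtgr1-/- to Prdm14-/-, and the groups from E294K to Mtgr1-/- overlapped their neighbours, with 58.9 and 84.4 RPKM in 2i+LIF.

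The 250 bases before the annotated start of Ezh1, Ezh2 and Suz12 are shown because these 3 genes fell in Mtgr1-/- cells while the windows differ in CpG content and motifs. Mtf2 fell as well, and its 2 annotated windows, with 23 and 2 CpGs, are not printed. The sequences are RefSeq promoters in GRCm38.p6, written 5′ to 3′ on the gene's strand, for Ezh1 from chr11:101226464-101226713, for Ezh2 from chr6:47595031-47595280 and for Suz12 from chr11:79992856-79993105. Capitals mark matches to the CCAAT box (CCAAT) and to E2F-type sites (TTGGCGC, the variant TTCGCGC, and the variant TTCCCGC), on either strand. The GC box GGGCGG was searched as well and is not in capitals.
Ezh1: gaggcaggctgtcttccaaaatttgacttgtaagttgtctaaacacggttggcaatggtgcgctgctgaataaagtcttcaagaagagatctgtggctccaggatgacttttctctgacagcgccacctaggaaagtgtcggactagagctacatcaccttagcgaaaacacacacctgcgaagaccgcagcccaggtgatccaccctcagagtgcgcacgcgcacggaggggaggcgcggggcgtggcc
Ezh2: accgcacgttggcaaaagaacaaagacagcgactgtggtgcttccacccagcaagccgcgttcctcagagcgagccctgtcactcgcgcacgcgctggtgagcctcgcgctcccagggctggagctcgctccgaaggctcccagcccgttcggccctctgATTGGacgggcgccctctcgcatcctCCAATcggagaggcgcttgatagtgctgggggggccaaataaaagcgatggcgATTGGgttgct
Suz12: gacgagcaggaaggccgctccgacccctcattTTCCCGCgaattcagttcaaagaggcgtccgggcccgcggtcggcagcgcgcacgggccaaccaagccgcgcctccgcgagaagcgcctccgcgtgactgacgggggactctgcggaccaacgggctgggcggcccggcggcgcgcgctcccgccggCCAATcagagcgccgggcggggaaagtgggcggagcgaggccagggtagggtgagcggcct
Ezh1 held no match, Ezh2 held 3 CCAAT boxes at 90, 64 and 11 bases before the start, and Suz12 held 1 CCAAT box at 61 and 1 E2F-type match at 218 bases before the start. Suz12 also held 3 GC boxes, and Ezh1 and Ezh2 none. Of 32841 RefSeq promoters of this length, 33.9% held a CCAAT box, 6.69% an E2F-type match and 32.8% a GC box. Outside these 3 genes, E2F-type matches were found in the promoters of Phf19 (1) and Rbbp4 (2). Those of Rbbp4, at 15 and 12 bases before the start, lie on opposite strands and overlap in 1 run of letters. The letters GGTCTCT, searched as a motif of Prdm14, were in 4.66% of all promoters and in none of the windows of the members. At so low a share, none in a few windows says little. The paper places Prdm14 binding mainly at distal elements, which windows of 250 bases do not cover. All 3 windows printed were richer in CpG than the median promoter, which has 6, with 14 CpGs in Ezh1, 23 in Ezh2 and 37 in Suz12. A match is only a run of letters.

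Eed reads the methylated histone tail and stimulates the enzyme. It was at 119 (G6) and 111 RPKM (F10) in the E294K lines, against 63.9 and 65.8 RPKM in FH-Prdm14 and 49.9 and 61.6 RPKM in Prdm14-/- cells. The E294K lines were above every other library of the study, of which the next was an FH-Mtgr1 line at 96.7 RPKM. Eed in E294K was higher by 0.82 on the log2 scale than in FH-Prdm14 (standard error 0.21, limma adjusted p = 0.0166) and by 1.04 than in Prdm14-/- cells (standard error 0.21, limma adjusted p = 0.00362). The first did not pass the threshold without any 1 of the 4 libraries (adjusted p from 0.0803 to 0.109). Eed did not pass the threshold in either knockout. The Mtgr1-/- clones had 61.8, 74.4 and 50.1 RPKM, which overlapped the 65.6, 70.9 and 96.7 RPKM of FH-Mtgr1, and the log2 fold change was -0.32 (95% interval -0.69 to 0.05). The wt serum+LIF library had 83.4 RPKM, and wt 2i+LIF 67.2 and 75.5 RPKM.

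Suz12, the scaffold of the core, lies on chromosome 11 (79806608 to 79847625, plus strand, NCBIM37). Mtgr1-/- clones A3, C1 and C3 had 41.8, 40.7 and 32.6 RPKM of it, against 78.4, 95.2 and 109 RPKM in their rescues, without overlap. The Mtgr1-/- libraries were the lowest of the study, and the wt serum+LIF library had 97.8 RPKM. Suz12 fell by 1.28 on the log2 scale against FH-Mtgr1 (standard error 0.15, limma adjusted p = 3.02e-05) and had -1.35 against wt cells (standard error 0.21, limma adjusted p = 0.0006). Prdm14-/- cells had 48.8 (G6) and 55.8 RPKM (F10), and FH-Prdm14 cells 63.6 and 64.6 RPKM. This log2 fold change of -0.29 did not pass the threshold (limma adjusted p = 0.266), but did with the clone as a replicate block (0.0463). Against wt cells Prdm14-/- cells had a log2 fold change of -0.90 (limma adjusted p = 0.0152), which was -0.34 (0.186) after adjustment for GC content. The E294K lines had 78.3 (G6) and 75.2 RPKM (F10), above Prdm14-/- cells by 0.55 (limma adjusted p = 0.0357), and by 0.23 (0.237) after the GC adjustment. Without any 1 of the 4 libraries its adjusted p was 0.0512 to 0.201. The order of means, wt serum+LIF, FH-Mtgr1, wt 2i+LIF, E294K, FH-Prdm14, Prdm14-/- and Mtgr1-/-, held overlaps only among the first 4.

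Jarid2 helps PRC2 bind chromatin and start methylation. It was at 108 (G6) and 105 RPKM (F10) in the E294K lines, above every other library. FH-Prdm14 cells had 54.0 and 54.3 RPKM, and Prdm14-/- cells 47.8 and 49.1 RPKM. The log2 fold change of E294K was 0.97 against FH-Prdm14 (standard error 0.19, limma adjusted p = 0.00505) and 1.12 against Prdm14-/- cells (standard error 0.19, limma adjusted p = 0.00174). In Mtgr1-/- cells Jarid2 was at 69.3, 78.2 and 59.2 RPKM, against 36.0, 42.4 and 43.2 RPKM in FH-Mtgr1. The groups did not overlap, and the log2 fold change was 0.75 (standard error 0.16, limma adjusted p = 0.00181). The wt serum+LIF library, at 69.3 RPKM, lay within the Mtgr1-/- range, so that the log2 fold change of Mtgr1-/- cells against it was -0.02 (95% interval -0.51 to 0.47). The 2i+LIF libraries had 48.8 and 30.9 RPKM, which was lower than wt serum+LIF by a log2 fold change of -0.83 (limma adjusted p = 0.0271). Without the second 2i+LIF library this was -0.50 (adjusted p = 0.0782).

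Aebp2, the second subunit of PRC2.2, which contacts the core and nucleosomal DNA, had the smallest F of the members. It was at 19.6, 19.5 and 22.7 RPKM in Mtgr1-/- cells and at 31.6 (G6) and 30.9 RPKM (F10) in Prdm14-/- cells. The Mtgr1-/- cells were lower by a log2 fold change of -0.59 (standard error 0.19, limma adjusted p = 0.03). Without Mtgr1-/- clone A3 or C1 or either Prdm14-/- clone, the adjusted p was 0.0817 to 0.123. Against their rescue lines, at 19.6, 23.0 and 26.2 RPKM in FH-Mtgr1 and 27.3 and 26.3 RPKM in FH-Prdm14, neither knockout passed the threshold. The 2i+LIF libraries had 43.1 and 25.5 RPKM.

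Mtf2, which brings PRC2 to CpG islands, was highest in the wt serum+LIF library at 72.6 RPKM. The Mtgr1-/- clones had 27.9, 27.1 and 18.1 RPKM, against 40.4, 46.1 and 50.0 RPKM in FH-Mtgr1, without overlap. Mtf2 fell by 0.91 on the log2 scale (standard error 0.19, limma adjusted p = 0.00192), and its log2 fold change against the wt library was -1.58 (limma adjusted p = 0.00103). The Prdm14-/- clones differed from each other, with 25.0 RPKM in G6 and 41.8 RPKM in F10, and both were below the 52.6 and 55.7 RPKM of FH-Prdm14. Mtf2 had a log2 fold change of -0.73 there (standard error 0.24, limma adjusted p = 0.0386), and -0.37 (0.372) without Prdm14-/- clone G6. Without either FH-Prdm14 line the adjusted p was 0.126 or 0.175. The E294K lines, at 63.6 (G6) and 60.7 RPKM (F10), were above Prdm14-/- cells by 0.93 (limma adjusted p = 0.0119), and by 0.57 (0.137) without that clone. Without either E294K line the adjusted p was 0.0605 or 0.0721.

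Phf19, a relative of Mtf2 that reads methylated histone H3, was the least abundant member, at 1.61 to 7.45 RPKM over the 15 libraries. It was at 7.34 (G6) and 7.17 RPKM (F10) in FH-Prdm14 and at 1.61, 1.90 and 3.82 RPKM in FH-Mtgr1, a log2 fold change of 1.47 (standard error 0.33, limma adjusted p = 0.00451). The Prdm14-/- clones had 2.72 (G6) and 5.60 RPKM (F10). The log2 fold change of -0.81 against FH-Prdm14 did not pass the threshold (limma adjusted p = 0.13), but did with the clone as a replicate block (1.42e-05), in which the spread comes from all genes. It was -0.35 (0.663) without Prdm14-/- clone G6 and -1.27 (0.0447) without clone F10. Mtgr1-/- cells, at 2.19, 2.82 and 2.31 RPKM, fell within the FH-Mtgr1 range.

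Rbbp7, on the X chromosome (159198334 to 159217024, plus strand, NCBIM37), and Rbbp4, on chromosome 4 (128984344 to 129012614, minus strand), encode closely related histone binders that also serve the NuRD, Sin3 and CAF-1 complexes. As near relatives they may share reads, and how reads with several alignments were counted is not given in the sources used here. Rbbp7 was at 67.8 (G6) and 68.3 RPKM (F10) in FH-Prdm14, the lowest levels of the study, and at 212 and 173 RPKM in Prdm14-/- cells of the same clones. The wt serum+LIF library had 177 RPKM, so that the Prdm14-/- clones lay on both sides of it. The log2 fold change of Prdm14-/- cells was 1.48 against FH-Prdm14 (standard error 0.17, limma adjusted p = 0.000116), a level 2.80-fold higher, and 0.11 against wt cells (95% interval -0.35 to 0.57). The E294K lines lay between, at 141 and 132 RPKM, above FH-Prdm14 by 1.00 (standard error 0.17, limma adjusted p = 0.00217) and below Prdm14-/- cells by a log2 fold change of -0.48 (limma adjusted p = 0.0486), a call lost without Prdm14-/- clone G6 or either E294K line (adjusted p 0.128 to 0.293). The 2i+LIF libraries, at 72.4 and 102 RPKM, were the nearest to FH-Prdm14, and were below the wt serum+LIF library by a log2 fold change of -1.04 (standard error 0.21, limma adjusted p = 0.00537). In Mtgr1-/- cells Rbbp7 was at 206, 199.9 and 162 RPKM, against 148, 144 and 144 RPKM in FH-Mtgr1. This difference of 0.37 on the log2 scale (standard error 0.14) was near the threshold, with a limma adjusted p of 0.0423, which became 0.0526 with the clone as a replicate block and 0.0793 to 0.135 without any 1 library other than Mtgr1-/- clone C3. Over the 436 X-linked genes tested, the median log2 fold change of Prdm14-/- against FH-Prdm14 cells was 0.09, and -0.09 over 12014 autosomal genes. The difference of Rbbp7 exceeded that of 94.5% of the X-linked genes.

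Rbbp4 was at 116 (F10) and 110.0 RPKM (G6) in the E294K lines, above all other libraries, and at 56.3 (G6) and 62.9 RPKM (F10) in Prdm14-/- cells. E294K was higher by a log2 fold change of 0.92 (standard error 0.20, limma adjusted p = 0.00513), and without Prdm14-/- clone G6 by 0.84 (0.0508). FH-Prdm14 cells had 76.6 and 79.1 RPKM. Against them the log2 fold change of Prdm14-/- cells, -0.38 (limma adjusted p = 0.175), did not pass the threshold, but did with the clone as a replicate block (0.00725). Mtgr1-/- cells, at 89.5, 88.1 and 59.4 RPKM, overlapped FH-Mtgr1, at 79.6, 74.5 and 71.2 RPKM.

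The effects of the 2 knockouts, each against its own rescue, differed for 4 of the 10 members in a limma test of the difference itself, 1 higher and 3 lower, against 31.4% of all genes tested (17.1% higher and 14.3% lower). The groups compared share no library. Prdm14 is overexpressed in its rescue, whereas Cbfa2t2, the gene of Mtgr1, was at 25.5 to 28.0 RPKM in FH-Mtgr1 against 40.7 RPKM in wt serum+LIF. The effect on Ezh1 differed by -1.97 on the log2 scale, Mtgr1 minus Prdm14 (standard error 0.30, limma adjusted p = 0.000659), and the difference was -0.99 for Suz12 (0.23, 0.00792). It was 0.91 for Jarid2 (0.25, 0.0165, and 0.0555 or 0.0581 without either FH-Prdm14 line) and -1.11 for Rbbp7 (0.22, 0.00318), which rose more against the overexpressing Prdm14 rescue. The fall of Ezh2 did not differ detectably between the knockouts, with a difference of -0.14 and a 95% interval from -0.70 to 0.42. For Mtf2 the difference was -0.17, with an interval from -0.84 to 0.49.

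**Figure D3:**
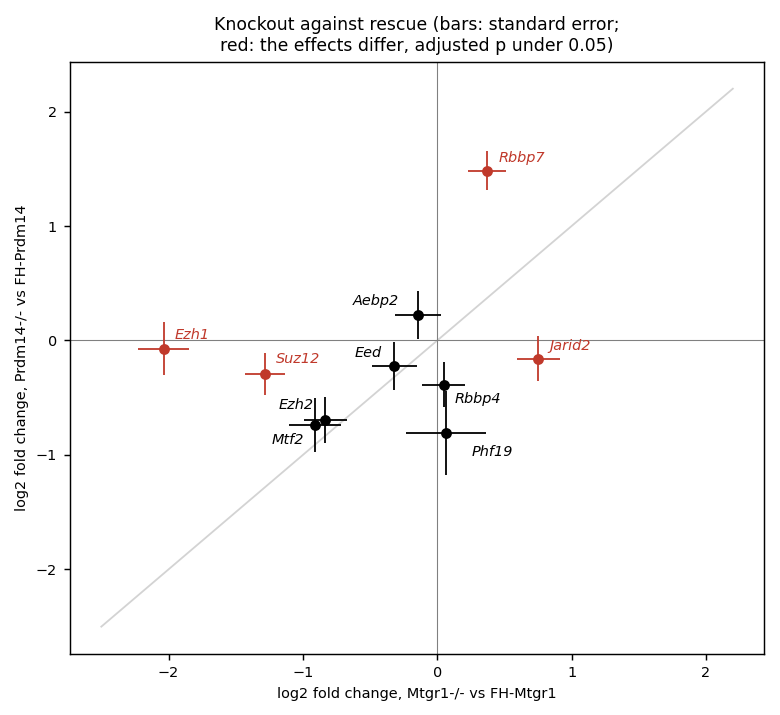
Log2 fold change of each member in Mtgr1-/- against FH-Mtgr1 (x axis) and in Prdm14-/- against FH-Prdm14 (y axis), with standard errors as bars and the line of equal effects in grey. Red marks the 4 members whose effects differed, of which Ezh1, Suz12 and Jarid2 lie near 0 on the y axis while Rbbp7 has 1.48 there against 0.37 on the x axis.

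Set against each other directly, Mtgr1-/- and Prdm14-/- cells differed in 3 members, 1 higher and 2 lower, against 35.4% of all genes tested (14.4% higher and 21.1% lower). These were Ezh1, with a log2 fold change of -1.53 (limma adjusted p = 0.000266), Jarid2, with 0.49 (0.0473), and Aebp2, as given above. The call of Jarid2 was lost without Mtgr1-/- clone A3 or C1 or either Prdm14-/- clone (adjusted p 0.104 to 0.169). Ezh2 (0.49) and Suz12 (-0.45) were just outside the threshold, with limma adjusted p of 0.0513 and 0.0528.

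E294K and FH-Prdm14 cells, which carry mutant and wild-type Prdm14 at like RNA levels, differed in 3 members, all higher in E294K, against 19.5% of all genes tested (6.35% higher and 13.2% lower). The members' median log2 fold change was 0.32, against -0.06 for all genes. In a fit of only these groups 8 members were called, against 58.2% of all genes in that fit. Blocking on the clone also gave 8, against 60.4%. The 5 added in the blocked fit were Ezh2, Suz12, Mtf2 and Rbbp4, higher in E294K, and Phf19, lower. Their limma adjusted p ran from 0.000512 for Rbbp4 to 0.036 for Mtf2. This blocked fit of 4 libraries has 1 residual degree of freedom as well, so that its p-values say little about how the clones vary in a single gene. Against Prdm14-/- cells, E294K cells differed in 7 members, 6 higher (Ezh2, Eed, Suz12, Jarid2, Mtf2 and Rbbp4) and Rbbp7 lower, against 32.9% of all genes tested (15.1% higher and 17.8% lower). The median of the members was 0.74 there, and that of all genes 0. Both comparisons use the same E294K libraries.

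Against the single wt serum+LIF library, 4 members were lower in Mtgr1-/- cells (Ezh1, Ezh2, Suz12 and Mtf2), against 37% of all genes tested (14.9% higher and 22.1% lower). In Prdm14-/- cells 4 were lower (Ezh2, Suz12, Mtf2 and Rbbp4), against 25.4% of all genes tested (11.7% higher and 13.7% lower), and the same wt library enters both. In Prdm14-/- cells only Ezh2 was called after adjustment for GC content, against 20.8% of all genes in that fit, and only Ezh2 without clone G6. Without clone F10, Rbbp4 had an adjusted p of 0.0564. Transcript GC content of the members ran from 38.2% in Mtf2 to 53.9% in Phf19. Between the media 2 members differed, Jarid2 and Rbbp7, both lower in 2i+LIF, against 22.9% of all genes tested (9.28% higher and 13.6% lower). With only these 3 libraries in the fit, 0 members were called by limma, 1 had an unadjusted p under 0.05, and voom over all libraries called 2. Of all genes, 0.896% were called in the fit of those 3 libraries. The FH-Prdm14 lines differed from the FH-Mtgr1 lines in 4 members, against 41.6% of all genes tested (26.2% higher and 15.4% lower). Phf19 was higher, Ezh2, Suz12 and Rbbp7 lower, with log2 fold changes of -0.54 for Suz12 (limma adjusted p = 0.0213, and 0.0527 to 0.114 without either FH-Prdm14 line or FH-Mtgr1 clone C1 or C3) and -1.09 for Rbbp7 (0.000292).

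Ratios within a library do not depend on its scaling. The ratio of Ezh2 to Ezh1 RPKM was 9.66 to 10.7 in Mtgr1-/- cells, above all other libraries, and 2.18 to 2.51 in Prdm14-/- cells, below all others. It was 4.33 in wt serum+LIF, 3.17 to 3.76 in 2i+LIF, 3.66 to 5.01 in FH-Mtgr1, 3.47 to 3.78 in FH-Prdm14 and 5.25 to 5.48 in E294K. The knockouts stood at opposite ends of the range. Of the pair, both genes were called in Mtgr1-/- cells and only Ezh2 in Prdm14-/- cells. Mtf2 over Jarid2, a PRC2.1 subunit over a PRC2.2 subunit, was 0.306 to 0.403 in Mtgr1-/- cells against 1.09 to 1.16 in FH-Mtgr1 and 1.05 in wt serum+LIF. It was 0.579 to 0.590 in E294K, 0.522 to 0.851 in Prdm14-/- cells, 0.969 to 1.03 in FH-Prdm14 and 0.998 to 1.55 in 2i+LIF. The pair does not stand for the 2 forms. In Mtgr1-/- against FH-Mtgr1 cells Phf19 (0.07) and Aebp2 (-0.14) were not called. Of other PRC2.1 genes, Phf1 had -0.56 and E130012A19Rik, also called Epop, 1.19. The ratios were not adjusted for transcript GC content, which was 38.2% in Mtf2 and 49.1% in Jarid2. Rbbp7 over Rbbp4 was 2.74 to 3.77 in Prdm14-/- cells and 0.863 to 0.885 in FH-Prdm14, where alone Rbbp4 exceeded Rbbp7. It was 2.27 to 2.73 in Mtgr1-/- cells, next to the Prdm14-/- range, and 1.86 to 2.03 in FH-Mtgr1. The E294K lines had 1.14 to 1.29, wt serum+LIF 1.78 and 2i+LIF 1.06 to 1.11.

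**Figure D4:**
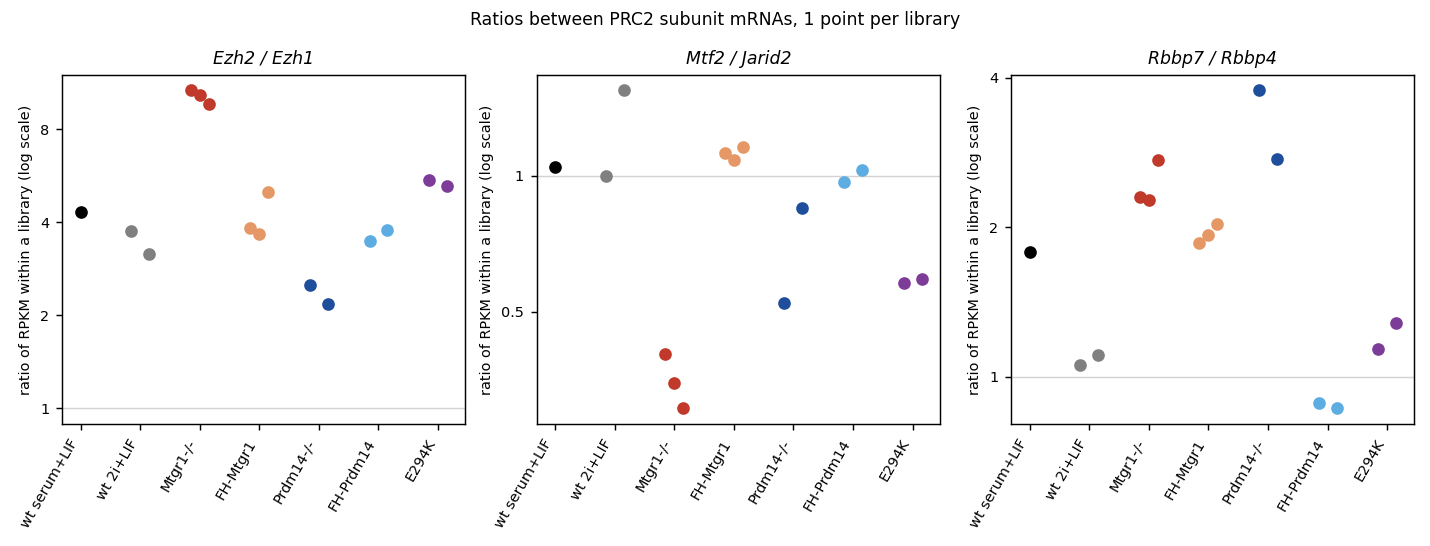
Ratios of RPKM between pairs of members within each library (y axes, log scale), by group (x axis), 1 point per library. Ezh2 over Ezh1 is at 9.66 to 10.7 in Mtgr1-/- cells, and Rbbp7 over Rbbp4 is under 1 only in FH-Prdm14.

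Genes around PRC2 were counted in lists of known members in the same fit. Their counts stand beside 26.2% of all genes higher and 26.1% lower in Mtgr1-/- against FH-Mtgr1 cells, and 11.4% higher and 13.8% lower in Prdm14-/- against FH-Prdm14 cells. Of 5 other PRC2 accessory proteins, 1 was higher and 2 lower in Mtgr1-/- against FH-Mtgr1 cells. Lcorl fell from 4.57 ± 0.19 to 0.693 ± 0.134 RPKM (SD, n = 3 each), a log2 fold change of -2.09, and Phf1, another relative of Mtf2, had -0.56. E130012A19Rik, the files' name for the PRC2.1 subunit Epop, rose by 1.19. In Prdm14-/- against FH-Prdm14 cells 0 of the 5 were called by limma, 0 had an unadjusted p under 0.05 and voom called 0. Of the H3K27 demethylases, which remove the mark, Kdm6b rose by 0.63 in Mtgr1-/- cells and fell by 0.76 in Prdm14-/- cells, each against its rescue, and Kdm6a was called in neither. PRC1 subunits were 4 higher and 4 lower of 21 in the Mtgr1 comparison and 3 higher and 3 lower in the Prdm14 comparison. In the former Pcgf1 (-1.47), Bmi1 (-1.17) and Phc2 (1.14) had the largest log2 fold changes, and in the latter Yaf2 (1.02), Phc1 (-0.91) and Pcgf5 (0.86).

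Partners of Rbbp4 and Rbbp7 in other complexes were 7 higher and 2 lower of 15 in Mtgr1-/- against FH-Mtgr1 cells, where 52.3% of all genes were called, and 2 higher in Prdm14-/- against FH-Prdm14 cells, where 25.2% were. Hat1, a histone acetyltransferase that pairs with Rbbp7, fell by 1.12, and the NuRD subunits Mbd3 and Gatad2a rose by 0.88 and 0.87 on the log2 scale in the former. Mta1 and Mta3, also of NuRD, rose by 0.72 and 0.55 in the latter. Of 30 developmental genes known as Polycomb targets in mESCs, 12 passed the filter on low values. In Mtgr1-/- cells 4 of them were higher and 2 lower than in FH-Mtgr1, and in Prdm14-/- cells 2 were higher and 4 lower than in FH-Prdm14, beside the same shares of all genes. Foxd3, a stem cell transcription factor, went in opposite directions, with log2 fold changes of 2.21 and -2.10, and Gata3 rose in both, by 1.10 and 1.82. Bmp4 rose by 1.39 in Mtgr1-/- cells, and Foxa1 fell by 1.24 in Prdm14-/- cells. Foxa1 was at 0.367 to 0.785 RPKM there and at 1.54 to 2.56 RPKM in FH-Prdm14, whose 2 libraries alone meet the filter. Gata3 was at 0.323 to 0.533 RPKM in FH-Prdm14 and at 2.01 to 3.73 RPKM in Prdm14-/- cells. Low genes can enter through the group where they are high, so that these counts do not test the targets as a set.

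Replication genes were counted because Ezh2 levels are known to follow proliferation. Of 20 tested, 6 were higher and 2 lower in Mtgr1-/- against FH-Mtgr1 cells, where 52.3% of all genes were called (26.2% higher and 26.1% lower). In Prdm14-/- against FH-Prdm14 cells 6 were lower and 0 higher, where 25.2% of all genes were called (11.4% higher and 13.8% lower). The other 12 and 14 were not called. Their median log2 fold changes were 0.13 and -0.43, and those of all genes -0.01 and -0.09. In the former Ccne1 (1.23), Fen1 (0.81) and Tyms (0.76) rose, and in the latter Rrm2 (-1.30), Ccne1 (-0.85) and Prim1 (-0.78) fell. The direction in Mtgr1-/- cells depended on the baseline. Against the single wt serum+LIF library, the median of the 20 was -0.23 in Mtgr1-/- cells, and that of all genes -0.11. In Prdm14-/- cells these medians were -0.59 and -0.05. In E294K against Prdm14-/- cells, where Ezh2 was higher, 12 of the 20 were higher, against 15.1% of all genes. In E294K against FH-Prdm14 cells, where Ezh2 had 0.38 and was not called, limma called 0 of the 20, against 19.5% of all genes. There 3 of the 20 had an unadjusted p under 0.05, and voom called 1. The part of these genes' changes in the level of Ezh2 was not tested.

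**Figure D5:**
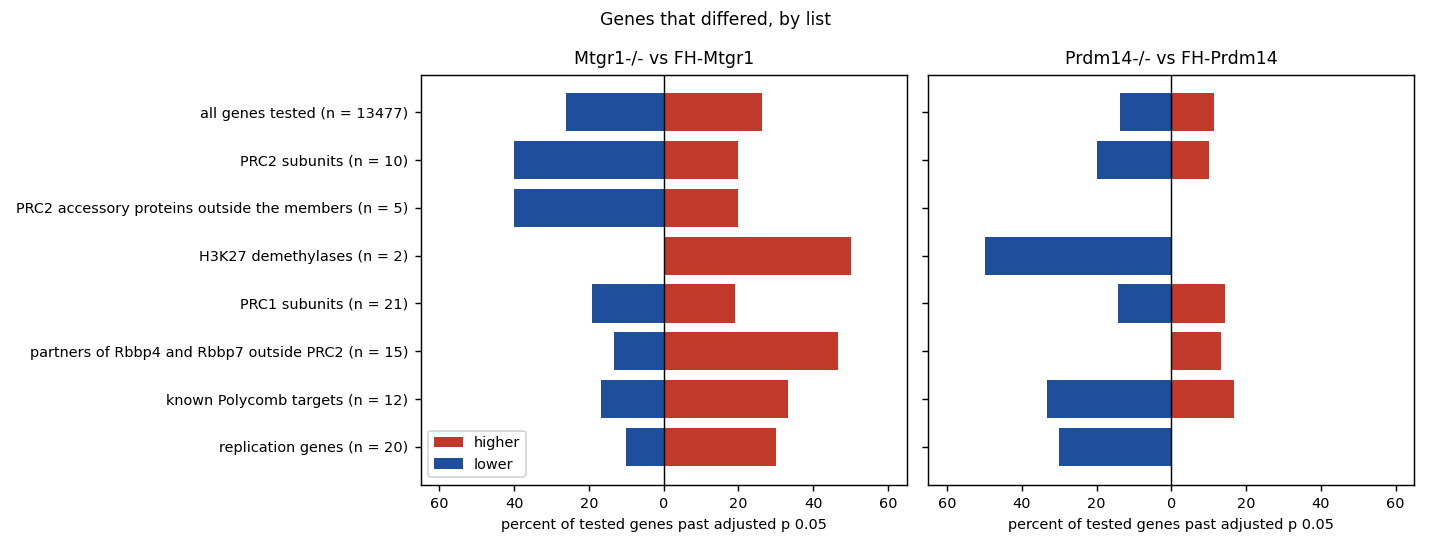
Percent of tested genes past an adjusted p of 0.05 in limma (x axis), higher to the right in red and lower to the left in blue, for all genes, the 10 PRC2 subunits and 6 lists (rows, with the number tested). Of the 20 replication genes, 6 were higher in the Mtgr1 comparison and 6 lower in the Prdm14 comparison.

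Across the 15 libraries, which fall into 7 groups, share genotype and medium within them and differ in depth, the members did not move as 1 unit. Pearson's r of log2 values was 0.88 between Ezh1 and Suz12, 0.83 between Suz12 and Mtf2, 0.81 between Ezh2 and Suz12 and 0.79 between Eed and Rbbp4, while Jarid2 with Ezh2 gave -0.07 and Rbbp7 with Ezh2 -0.17. The genes most like Ezh2 were Nmt1 (0.953), Calca (0.952) and Luc7l2 (0.947). Those most like Eed were Rest (0.894), Pdhb (0.893) and Sugt1 (0.883), and those most like Suz12 were Marf1 (0.974), Mynn (0.970) and Tbl2 (0.966). These are descriptions over libraries that are not independent.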

How the data were processed

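The 15 RNA-seq libraries were used, and the 11 samples of ChIP-seq are left aside, as not analysed here. The paper names NextSeq or HiSeq instruments, with reads of different length, for the RNA-seq. It does not say which libraries ran on which, and a part of this in the differences between groups was not tested. The authors aligned reads to mm9 with Tophat and counted them on RefSeq genes with HTSeq, and they deposited RPKM values with gene lengths. Multiplied by length, the values gave whole reads (tolerance 0.001), which served for depth and voom. Groups came from the labels. The members, lists and tests were chosen with earlier results of these data known.

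Genes that reached 1 RPKM in 2 or more libraries were tested. log2(RPKM + 0.5) was fitted with 1 mean per group in limma 3.58.1 (R 4.3.3, trend), with Benjamini-Hochberg adjustment over 13477 genes. The pseudocount understates changes of low genes. The fit was tested on simulated data. Rescue and knockout libraries are paired by parental clone in the labels. Deviations of same-clone libraries correlated across genes at -0.18 to 0.06 for Mtgr1, 0.299 for Prdm14-/- with FH-Prdm14, and 0.08 and 0.04 for E294K with FH-Prdm14 and Prdm14-/-.

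Named were all members, the 3 largest called changes of each list (mean RPKM of at least 1) in both knockout-rescue comparisons, and the 3 genes most correlated with Ezh2, Eed and Suz12. Positions and GC content (12046 genes) came from NCBIM37 with GENCODE M1, promoters from RefSeq. The test of the difference between knockout effects and a fit without the 2i+LIF libraries were added after the data were seen. Python 3.11.15 with pandas 2.3.3 was used otherwise.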

Additional observations from a re-analysis of the deposited data

Results flagged for a closer look

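The effects of losing Mtgr1 and of losing Prdm14, each measured against the rescue of the same clones, were set against each other in an interaction test that was added after the data were seen. Prdm14 is overexpressed in its rescue, and the test also holds the difference between the rescues. On the log2 scale, FH-Prdm14 minus FH-Mtgr1 was -0.43 for Ezh1, -0.54 for Suz12, 0.42 for Jarid2 and -1.09 for Rbbp7. Mtgr1-/- minus Prdm14-/- was -1.53, -0.45, 0.49 and -0.02 in the same order. The difference, Mtgr1 effect minus Prdm14 effect on the log2 scale, was past an adjusted p of 0.05 (limma, Benjamini-Hochberg) for 4 members, and was -1.97 for Ezh1, -0.99 for Suz12, 0.91 for Jarid2 and -1.11 for Rbbp7. That of Jarid2 had an adjusted p of 0.0581 or 0.0555 in limma without either of the FH-Prdm14 libraries. The other 3 passed under every alternative run.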

How the results depend on the processing

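Over 36 called differences of single members, 423 of 488 values under the alternatives were past the threshold in the same direction, 65 kept their direction without passing it and 0 reversed, and 18 of the differences passed under every alternative. Of the numbers of members called, those for Prdm14-/- against FH-Prdm14 rose from 3 to 6 with the clone as a replicate block, and those for E294K against FH-Prdm14 from 3 to 8 with the block and to 8 with only the compared groups in the fit. The block moved no other number of calls by over 1.5 times and, beside the members named in the report, changed no call. Prdm14-/- against wt serum+LIF fell from 4 to 1 after GC adjustment, and 2i+LIF against wt serum+LIF from 2 to 0 with only the compared groups. Mtgr1-/- against Prdm14-/- rose from 3 to 5 with voom, with GC adjustment and without both 2i+LIF libraries. Leaving out 1 library at a time gave 5 to 6 members for Mtgr1-/- against FH-Mtgr1, 1 to 3 for Prdm14-/- against FH-Prdm14, 2 for E294K against FH-Prdm14, 3 to 6 for E294K against Prdm14-/-, 1 to 3 for Prdm14-/- against wt serum+LIF, 1 to 5 for Mtgr1-/- against Prdm14-/-, 2 to 4 for FH-Prdm14 against FH-Mtgr1 and 7 to 10 for the F-test. A group left with 1 library is assumed to vary like the others. The causes of these shifts were not tested. With 1 wt serum+LIF library and pairs elsewhere, small differences could not be resolved.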
